A study of Mus musculus with 12 samples.

Results

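The Schlafen and Apol9 genes were measured in the hippocampus of mice that received a virus against Hp1bp3, and 8 genes were followed among 22236 in the table. They were Slfn2, Slfn3, Slfn4, Slfn5, Slfn8, Slfn9, Apol9a and Apol9b, taken by symbol, and all 8 passed the filter on low counts that left 15853 genes. Slfn4, Apol9a and Apol9b had at most 5, 8.72 and 16.28 expected counts in any control library. These 3 genes passed largely through the knockdown libraries, where they were higher, so passing does not mean expression in every group. The set was chosen by the measured difference between knockdown and control in these same libraries, which was strong for Slfn4, Slfn8 and Apol9b. Values for knockdown against control are therefore a description with no test. The difference between strains under control virus rests on the same control libraries, so for these genes it is given as a description too.

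Messenger RNA was sequenced from 12 mice, 3 for each combination of strain and virus. All were adult males aged 3 to 5 months of the inbred strains C57BL/6J (B6) and DBA/2J (D2). Each received adeno-associated virus serotype 9 (AAV9) in both hippocampi, and tissue was taken at least 6 weeks later. The B6 KD and D2 KD groups received AAV9-shRNA-Hp1bp3, a hairpin that lowers Hp1bp3, and the B6 Ctrl and D2 Ctrl groups received the scrambled hairpin, so every mouse carried virus and no uninjected mouse was included. The virus was placed in the dorsal hippocampus while whole hippocampus was sequenced, so uninfected tissue was part of each library. The promoter that drove the hairpin was not given in the sources used here.

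Schlafen proteins are a rodent-expanded family that interferons induce, known from the growth control of T cells and macrophages, and the longer members carry a helicase-like region. Apol9a and Apol9b are mouse apolipoprotein L proteins, lipid-binding proteins that interferon also induces and that have been linked to antiviral defence. Type I interferon signals through its receptor and the Jak kinases to transcription factors that bind the interferon-stimulated response element (ISRE) in the promoters of target genes.

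The 6 Schlafen members lay in a single cluster on chromosome 11 of GRCm38, spanning 263.8 kb from position 82951349 to 83215154 in GENCODE M21. Slfn5 (82951349 to 82964840), Slfn2 (83065112 to 83070678), Slfn4 (83175186 to 83190216) and Slfn3 (83191330 to 83215154) were on the plus strand. Slfn9 (82978390 to 82991830) and Slfn8 (83002158 to 83020810) were on the minus strand. Apol9a (77403789 to 77411135, minus strand) and Apol9b (77729039 to 77736382, plus strand) lay on chromosome 15. All 8 are annotated as protein coding.

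Promoters of RefSeq on GRCm38.p6, taken from 250 bases before to 50 after the start site, were searched on both strands for the core letters of the ISRE, which are GAAA, any 2 bases and GAAA. They were found in 5 of 8 members (Slfn5, Slfn8, Slfn9, Apol9a and Apol9b) and in 3.49% of 27025 promoters. Other genes of both families had them in 6 of 13 promoters, and other interferon-stimulated genes in 7 of 10. The share was 6 of 10 for interferon genes, 1 of 6 for interferon-activated transcription factors and 0 of 7 for receptors and their kinases. The letters TTCNNNGAA, the interferon gamma activated site, were found in 0 of 8 members and in 8.47% of all promoters. A match describes letters in this window and is not evidence of binding. The 5 windows of 100 bases that hold the ISRE letters are shown because they let the paralogs be compared, each 5′ to 3′ on the strand of its gene, with the matched letters in capitals.

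Slfn5: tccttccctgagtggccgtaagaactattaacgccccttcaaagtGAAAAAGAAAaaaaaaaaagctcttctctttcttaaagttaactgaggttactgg
Slfn8: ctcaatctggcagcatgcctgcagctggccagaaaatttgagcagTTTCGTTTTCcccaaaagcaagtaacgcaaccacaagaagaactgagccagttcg
Slfn9: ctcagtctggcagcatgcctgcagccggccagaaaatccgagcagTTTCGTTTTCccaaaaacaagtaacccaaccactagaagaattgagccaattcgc
Apol9a: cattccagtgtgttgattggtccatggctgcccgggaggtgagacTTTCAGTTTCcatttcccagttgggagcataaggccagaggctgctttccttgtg
Apol9b: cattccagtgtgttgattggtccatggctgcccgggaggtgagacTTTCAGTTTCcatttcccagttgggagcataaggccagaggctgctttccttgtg

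These windows are chr11:82951902-82952001 (plus) for Slfn5, chr11:83020804-83020903 (minus) for Slfn8, chr11:82991821-82991920 (minus) for Slfn9, chr15:77411085-77411184 (minus) for Apol9a and chr15:77728990-77729089 (plus) for Apol9b. The matched letters began 155, 48, 45, 59 and 37 bases before the start site, in that order. In GENCODE M21 Slfn5 starts at 82951349, so the whole Slfn5 window lies inside the annotated gene, upstream of the RefSeq start site only. The end of that window runs into an exon of another transcript of Slfn5. Slfn8 and Slfn9 shared the same matched letters, and their promoters were identical at 248 of 292 aligned bases (84.9%). The Apol9a and Apol9b promoters were identical at 278 of 278 aligned bases (100%), and in each a further match overlapped the one in capitals. No match was found in the windows of Slfn2, Slfn3 and Slfn4.

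Library totals ran from 18.2 to 39.4 M expected counts. Levels are given as CPM, counts per 1 M counts of the library after TMM scaling. Hp1bp3, the target, stood at 308, 294 and 310 CPM in B6 Ctrl and at 185, 182 and 259 CPM in B6 KD. In D2 it stood at 226, 215 and 234 CPM in Ctrl and at 177, 163 and 229.5 CPM in KD. The log2 difference of Hp1bp3 was -0.54 ± 0.15 (SE) in B6 and -0.25 ± 0.15 in D2, with adjusted p-values of 0.0760 and 1 in edgeR. The library labelled D2 KD 3 thus lay inside the range of D2 Ctrl, and B6 KD 3 retained 85.2% of the B6 Ctrl mean. The mouse numbers in the titles separated KD from Ctrl within each strain, in opposite order in B6 and D2, so any effect of that order cannot be told apart from treatment. The neuronal markers, among them Snap25 and Slc17a7, summed to 5561 to 6123 CPM in B6 Ctrl, 4799 to 5937 in B6 KD, 5201 to 6086 in D2 Ctrl and 5590 to 6138 in D2 KD.

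In B6, every KD library exceeded every Ctrl library for all 8 members, a pattern that 13.9% of all genes tested showed in the upward direction. Of the 8 members, 7 were among the genes called higher by edgeR's quasi-likelihood test, all but Slfn3, against 1.76% of all genes called higher. That count follows from how the set was chosen and carries no test. The count was 0 without B6 Ctrl 1, B6 Ctrl 3, B6 KD 1, B6 KD 2 or D2 Ctrl 1, and 2 without B6 Ctrl 2, D2 Ctrl 2 or D2 KD 1. It reached 8 in other fits that left out a library and was 1 with limma-voom. The median fitted log2 fold change of the members was 3.05 beside 0.0025 for all genes tested.

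**Figure D1:**
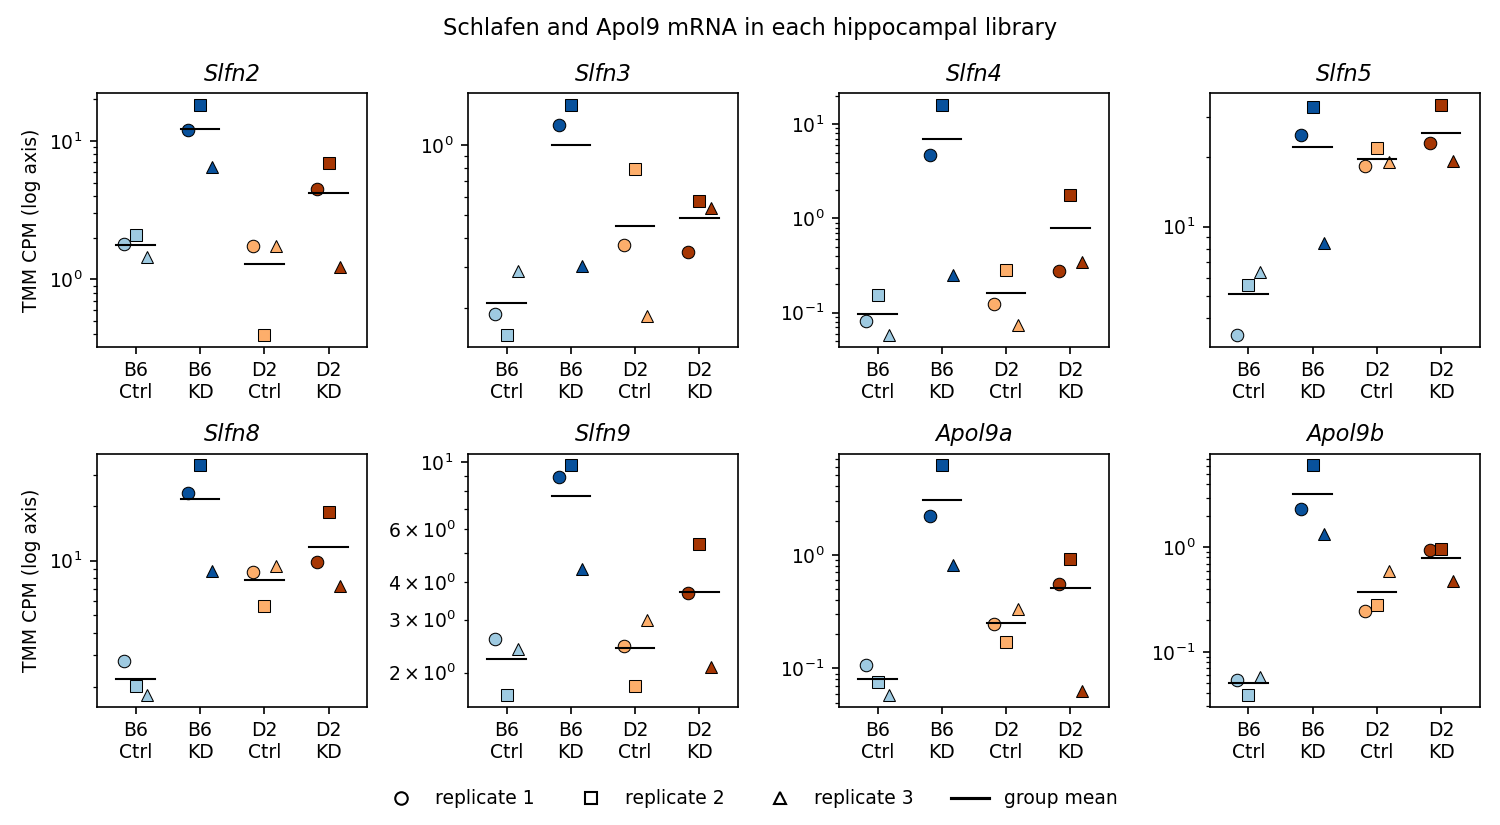
Level of each member in each of the 12 libraries, as TMM CPM on a log axis that differs between panels. Points are libraries, symbols give the replicate and black lines the group mean (n = 3). In B6 all KD points lie above all Ctrl points in each panel, whereas in D2 the groups overlap in each panel.

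Slfn2, a short Schlafen required for the quiescence of T cells, stood at 1.81, 2.10 and 1.45 CPM in B6 Ctrl and at 12.1, 18.2 and 6.48 CPM in B6 KD. In D2 it stood at 1.73, 0.396 and 1.74 CPM in Ctrl and at 4.51, 6.86 and 1.23 CPM in KD. In B6 the groups were apart, and in D2 the library labelled D2 KD 3 fell among the Ctrl values. The fitted log2 difference between KD and Ctrl was 2.77 ± 0.63 (SE) in B6 and 1.66 ± 0.63 in D2. Among the 8 members only Slfn4, with 11 counts in D2 Ctrl, had a larger fitted value in D2.

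Slfn3 and Slfn4 are of intermediate length, and Slfn4 is best known from macrophages and other myeloid cells. Slfn4 stood at 0.0809, 0.153 and 0.0578 CPM in B6 Ctrl, which were 3, 4 and 2 counts, and at 4.74, 16.0 and 0.252 CPM in B6 KD. In D2 it stood at 0.124, 0.283 and 0.0741 CPM in Ctrl and at 0.280, 1.76 and 0.348 CPM in KD. Of all members Slfn4 varied most within B6 KD, with a ratio of 63.3 between its highest and lowest library. From summed counts of 9 and 541, Slfn4 was 60.2 times as high in B6 KD as in B6 Ctrl, with a 95% exact interval of 31.5 to 132 that covers counting error only. The fitted log2 difference was 6.15 ± 1.39 in B6 and 2.43 ± 1.38 in D2, and it rested on these few Ctrl counts. The B6 value was 4.66 without B6 KD 2 and 4.39 with limma-voom.

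Slfn3 was low in every group. It stood at 0.189, 0.153 and 0.289 CPM in B6 Ctrl and at 1.22, 1.49 and 0.302 CPM in B6 KD, so B6 KD 3 lay just above the Ctrl range. The D2 values were 0.372, 0.792 and 0.185 CPM in Ctrl and 0.349, 0.579 and 0.538 CPM in KD. The fitted log2 differences were 2.19 ± 0.64 in B6 and 0.19 ± 0.63 in D2.

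Slfn5, Slfn8 and Slfn9 are long Schlafens. Slfn5 stood at 3.37, 5.54 and 6.33 CPM in B6 Ctrl and at 25.2, 33.0 and 8.52 CPM in B6 KD. It stood at 18.3, 22.0 and 19.0 CPM in D2 Ctrl and at 23.2, 33.8 and 19.3 CPM in D2 KD. All D2 libraries, whatever the virus, were above every B6 Ctrl library. The fitted log2 difference between KD and Ctrl was 2.13 ± 0.43 in B6 and 0.37 ± 0.41 in D2.

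Slfn8 stood at 2.78, 2.03 and 1.79 CPM in B6 Ctrl and at 23.8, 33.7 and 8.72 CPM in B6 KD. The D2 values were 8.64, 5.60 and 9.33 CPM in Ctrl and 9.89, 18.6 and 7.27 CPM in KD. As for Slfn5, the B6 Ctrl libraries were the lowest of all. The fitted log2 difference was 3.32 ± 0.51 in B6 and 0.60 ± 0.46 in D2. Slfn9, its neighbour, stood at 2.59, 1.68 and 2.40 CPM in B6 Ctrl and at 8.94, 9.73 and 4.41 CPM in B6 KD. In D2 it stood at 2.45, 1.81 and 3.00 CPM in Ctrl and at 3.67, 5.34 and 2.09 CPM in KD. Unlike Slfn8, Slfn9 overlapped between B6 Ctrl and D2 Ctrl. Its fitted log2 difference was 1.78 ± 0.39 in B6, the lowest of the 8 members there, and 0.61 ± 0.38 in D2.

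Apol9a stood at 0.108, 0.0765 and 0.0578 CPM in B6 Ctrl and at 2.21, 6.14 and 0.806 CPM in B6 KD. In D2 it stood at 0.248, 0.170 and 0.333 CPM in Ctrl and at 0.559, 0.921 and 0.0633 CPM in KD. The library labelled D2 KD 3 was thus the lowest of the D2 libraries for Apol9a. From summed counts, Apol9a was 31.3 times as high in B6 KD as in B6 Ctrl, with a counting interval of 15.6 to 73.2. The fitted log2 difference was 5.14 ± 0.98 in B6 and 1.01 ± 0.90 in D2. The B6 value was 4.12 without B6 KD 2 and 4.39 with limma-voom.

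Apol9b stood at 0.0539, 0.0382 and 0.0578 CPM in B6 Ctrl and at 2.33, 6.09 and 1.34 CPM in B6 KD. The D2 values were 0.248, 0.283 and 0.593 CPM in Ctrl and 0.943, 0.973 and 0.474 CPM in KD. It was the only member whose B6 KD libraries were all above all D2 KD libraries, the 2 highest of its 4 groups. The ratio of summed counts in B6 was 54.8 with a counting interval of 23.2 to 170. The fitted log2 difference was 5.87 ± 0.74 in B6 and 1.07 ± 0.60 in D2. The B6 value was 5.04 without B6 KD 2 and 5.21 with limma-voom.

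In D2, none of the 8 members had KD libraries that were all above the Ctrl libraries, beside 2.93% of all genes tested. No gene of 15853 was called in D2 by edgeR (0% of genes), where 452 had an unadjusted p under 0.05 and DESeq2 called 1. All 8 fitted values were above 0, with a median of 0.81. The difference between the strains in the fitted KD values ran from -1.12 for Slfn2 to -4.80 for Apol9b. No gene was called for that difference by edgeR, with 937 at an unadjusted p under 0.05 and 11 called by DESeq2.

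The KD libraries fell in nearly the same order for each member. B6 KD 2 was the highest and B6 KD 3 the lowest of its group for 8 of 8 members. D2 KD 2 was the highest for 8 of 8, and the library labelled D2 KD 3 was the lowest for 6. Hp1bp3 ran the other way, at 59.9% of the Ctrl mean in B6 KD 2, 61.0% in B6 KD 1 and 85.2% in B6 KD 3. In D2 it was 72.2% in D2 KD 2, 78.6% in D2 KD 1 and 102% in the library labelled D2 KD 3. With 3 libraries in a group this order is a description.

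**Figure D2:**
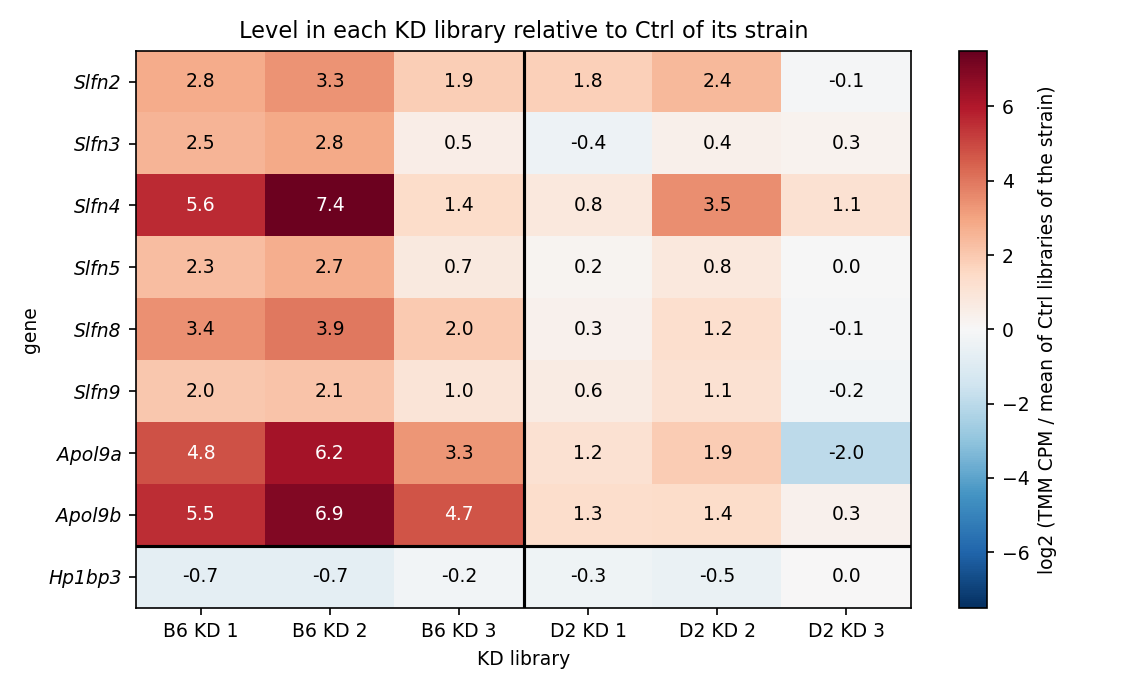
Level of each member and of Hp1bp3 in each of the 6 KD libraries, as the log2 ratio of its TMM CPM to the mean of the 3 Ctrl libraries of the same strain. Colour and printed number give the same value. The members are most raised in B6 KD 2 and, within D2, in D2 KD 2, while Hp1bp3 is at or near 0 in D2 KD 3.

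Several D2 values moved when single libraries were left out. Without the library labelled D2 KD 3 the fitted log2 difference in D2 was 2.09 for Slfn2, 0.85 for Slfn8, 0.89 for Slfn9, 1.53 for Apol9a and 1.34 for Apol9b. Without D2 KD 2 it was 1.07 for Slfn4, 0.12 for Slfn8, 0.11 for Slfn5 and 0.25 for Apol9a. For Slfn3 the value was 0.79 without D2 Ctrl 2, and the sign turned to -0.19 without D2 Ctrl 3.

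The strains were then compared under the scrambled virus. Choosing genes for a large rise over B6 Ctrl favours genes that are low in B6 Ctrl, so for the members this comparison is not independent of their choice and carries no test. Slfn5, Slfn8 and Apol9b were among the genes that edgeR called higher in D2 Ctrl than in B6 Ctrl, which made 3 of 8 members, beside 5.23% of all genes called higher. No member was called lower, beside 8.75% of all genes. The median log2 difference of the members was 1.30 and that of all genes tested was 0.023.

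Slfn5 averaged 5.08 ± 1.53 CPM (SD, n = 3) in B6 Ctrl and 19.8 ± 1.95 CPM (SD, n = 3) in D2 Ctrl, with no overlap between the libraries. The log2 difference was 1.96 ± 0.43 (SE), and it ran from 1.74 to 2.16 over the 12 fits that left out a library, in all of which Slfn5 stayed among the genes called.

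Slfn8 lay between 1.79 and 2.78 CPM in B6 Ctrl and averaged 7.86 ± 1.98 CPM in D2 Ctrl (SD, n = 3), again without overlap. The log2 difference was 1.84 ± 0.49, and it ran from 1.70 to 2.05 when single libraries were left out. Slfn8 was no longer called without any 1 of the B6 Ctrl libraries, without D2 Ctrl 1 or without D2 Ctrl 3.

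Apol9b averaged 0.050 ± 0.0104 CPM in B6 Ctrl and 0.374 ± 0.190 CPM in D2 Ctrl (SD, n = 3). The log2 difference was 2.79 ± 0.81 and rested on 5.87 expected counts in B6 Ctrl and 29.67 in D2 Ctrl. The ratio of summed counts was 7.37, with a counting interval of 2.82 to 24.4. Apol9b was called in 3 of the 12 fits that left out a library, those without B6 KD 2, B6 KD 3 or D2 KD 3, and its log2 difference was lowest, 2.28, without D2 Ctrl 3.

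The other members were not called. Apol9a did not overlap between the strains, and its log2 difference was 1.60 ± 1.11. The values were 1.00 ± 0.68 for Slfn3, 0.64 ± 1.76 for Slfn4, 0.12 ± 0.39 for Slfn9 and -0.42 ± 0.64 for Slfn2. For none of these 5 members do the errors settle the sign. Reads of each mouse were aligned to the genome of its own strain, so a difference between the strains cannot be told apart from a difference between the references.

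**Figure D3:**
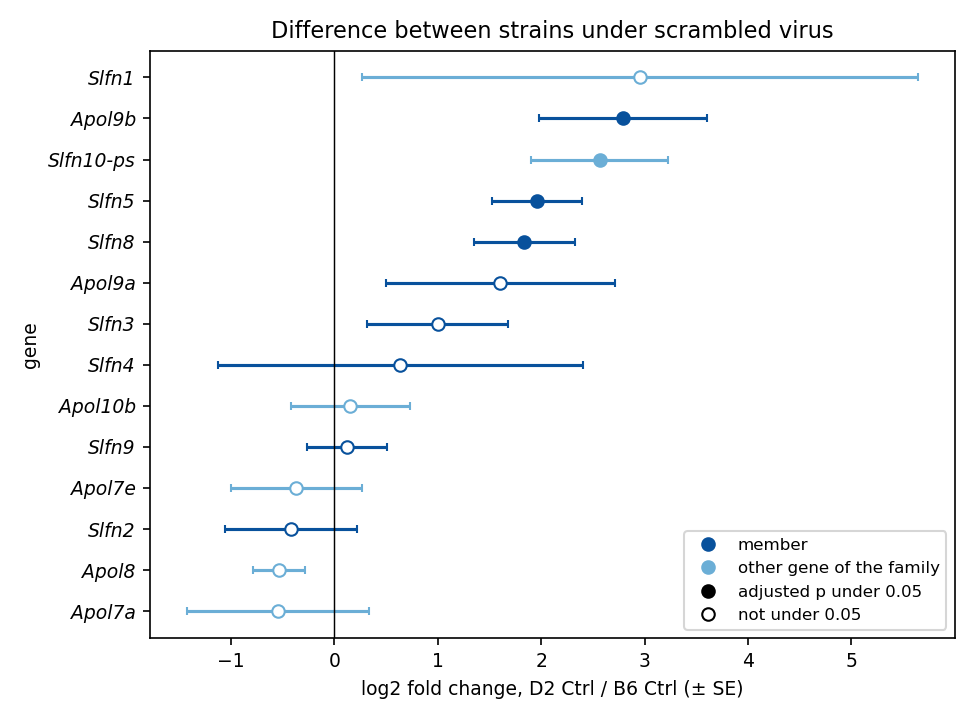
Fitted log2 fold change of D2 Ctrl over B6 Ctrl with its standard error for the members (dark blue) and other tested Schlafen and Apol genes (light blue). Apold1, also on the list of other family genes, is not drawn, and the lowest value of that list was -1.43. Filled points were among the genes called by edgeR at an adjusted p under 0.05, which for the members and Slfn10-ps is a description. Slfn5, Slfn8, Apol9b and the pseudogene Slfn10-ps are filled, all to the right of 0.

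Members were ordered by level per kilobase of merged exons. Slfn2 was the highest in B6, with 1.07 ± 0.198 CPM per kb under scrambled virus and 7.35 ± 3.51 under KD (SD, n = 3). Slfn5 was the highest in D2, at 3.12 ± 0.308 CPM per kb in D2 Ctrl and 4.03 ± 1.19 in D2 KD. Slfn2 and Slfn5 overlapped in B6 Ctrl, whereas every D2 Ctrl library was higher for Slfn5 (2.89 to 3.47 CPM per kb) than for Slfn8 (1.37 to 2.28), the next in order. Across groups, the order of mean CPM from low to high was B6 Ctrl, D2 Ctrl, D2 KD and B6 KD for 6 members. Slfn5 was highest in D2 KD and Slfn2 was lowest in D2 Ctrl. Neighbouring groups in these orders overlapped except B6 Ctrl and D2 Ctrl for Slfn5, Slfn8, Apol9a and Apol9b, and D2 KD and B6 KD for Apol9b.

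Slfn8 and Slfn9, and Apol9a and Apol9b, are close copies, and the counts were split between copies by RSEM, which assigns shared reads in proportion to its own estimates. Of the stretches of 75 bases in the transcripts, 43.3% of those of Apol9b and 13.8% of those of Apol9a also occurred in the other. For Slfn8 and Slfn9 the shares found in any other gene were 6.99% and 5.90%. The division between Apol9a and Apol9b is uncertain for that reason.

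Slfn9 made up 48.3, 45.4 and 57.2% of the summed Slfn8 and Slfn9 counts in B6 Ctrl. The share was 27.3, 22.4 and 33.6% in B6 KD, below every B6 Ctrl library. It was 22.1, 24.3 and 24.3% in D2 Ctrl and 27.0, 22.3 and 22.2% in D2 KD. B6 Ctrl was thus apart from the other 3 groups, which lay close together. Slfn8 was chosen for its change with knockdown, so the lower Slfn9 share in B6 KD is not independent of that choice. Apol9a made up 33.5 to 60.2% of the Apol9a and Apol9b counts in 11 libraries and 9.18% in the library labelled D2 KD 3, where it had 1.56 expected counts. When each pair was summed, the strain difference under scrambled virus was 1.22 for Slfn8 with Slfn9 and 2.22 for Apol9a with Apol9b on the log2 scale, and neither sum was called. In B6 the summed Slfn8 and Slfn9 had a log2 KD difference of 2.74.

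**Figure D4:**
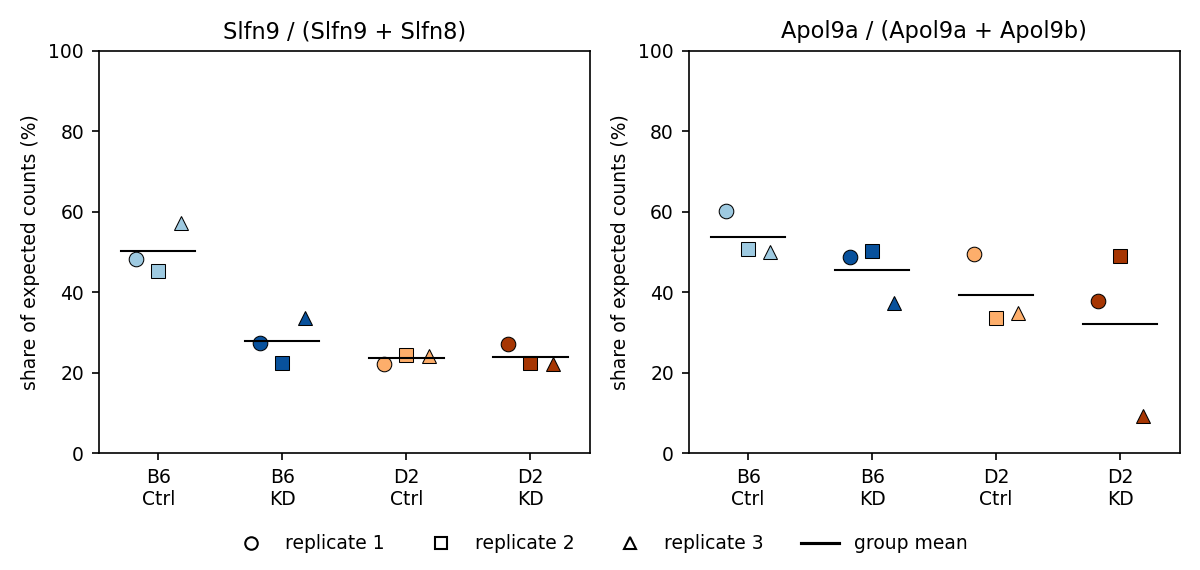
Share of the expected counts of each paralog pair, in percent, in each of the 12 libraries (points, with symbols for the replicate) and its group mean (lines, n = 3). The Slfn9 share is between 45.4 and 57.2% in B6 Ctrl and below 34% elsewhere, and the Apol9a share of D2 KD 3 lies far below the rest.

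Other genes of both families were examined as a list of 16, of which 7 were tested. None was called in B6 KD against B6 Ctrl by edgeR, and 2.64% of all genes were called in either direction. At an unadjusted p under 0.05 there were 4 of the 7, and DESeq2 called 2. Among all 15853 genes tested these counts were 3262 and 1688. Slfn1, the short relative of Slfn2, had 0, 0 and 1 counts in B6 Ctrl and 74, 143 and 10 in B6 KD. Its groups did not overlap, and the ratio of summed counts was 227, with a counting interval of 40.4 to 9012. The edgeR adjusted p of Slfn1 was 0.0591. Slfn1 passed the filter on low counts only through KD libraries and was singled out after its values were seen. Its values are therefore a description. Apol8 had a log2 difference of -0.88 ± 0.25 (adjusted p 0.0811 in edgeR) and Apol10b one of 1.49 ± 0.55. The pseudogene Slfn10-ps shared more stretches with Slfn8 and Slfn9 than any other gene did, 4.98% and 4.48% of theirs. Under scrambled virus Slfn10-ps had 6.07, 3 and 0 expected counts in B6 Ctrl and 18.08, 7.95 and 18.06 in D2 Ctrl. The fitted value was higher in D2, at 2.57 ± 0.67 with an adjusted p of 0.0239 in edgeR. Of the 7 genes tested it was the only 1 called, beside 5.23% of all genes called higher. Slfn10-ps had few counts in B6 Ctrl and was singled out after its values were seen, so this is a description. Its call was lost without B6 Ctrl 2, D2 Ctrl 1 or D2 Ctrl 3.

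Unrelated neighbours of the clusters were tested as a list of 16, with 10 around the Schlafen genes and 6 around the Apol genes. None was called in B6 or in D2 for KD against Ctrl by edgeR, where the list medians in B6 were 0.042 and -0.19. At an unadjusted p under 0.05 there were 6 of the 16 in B6 and 1 in D2, and DESeq2 called 2 in B6 and 0 in D2. Of all 15853 genes tested, 3262 in B6 and 452 in D2 had an unadjusted p under 0.05. DESeq2 called 1688 of all genes in B6 and 1 in D2, and edgeR called 2.64% in B6 and 0% in D2. Rasl10b, next to the Schlafen cluster, had a log2 difference of -0.33 ± 0.088 in B6. Fndc8 had the lowest value there, -0.98 ± 0.34, and Unc45b the highest, 0.59 ± 0.28. Between the strains under scrambled virus only Cacng2 of the 16 was called, lower in D2 by edgeR. Of all genes, 5.23% were called higher and 8.75% lower.

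**Figure D5:**
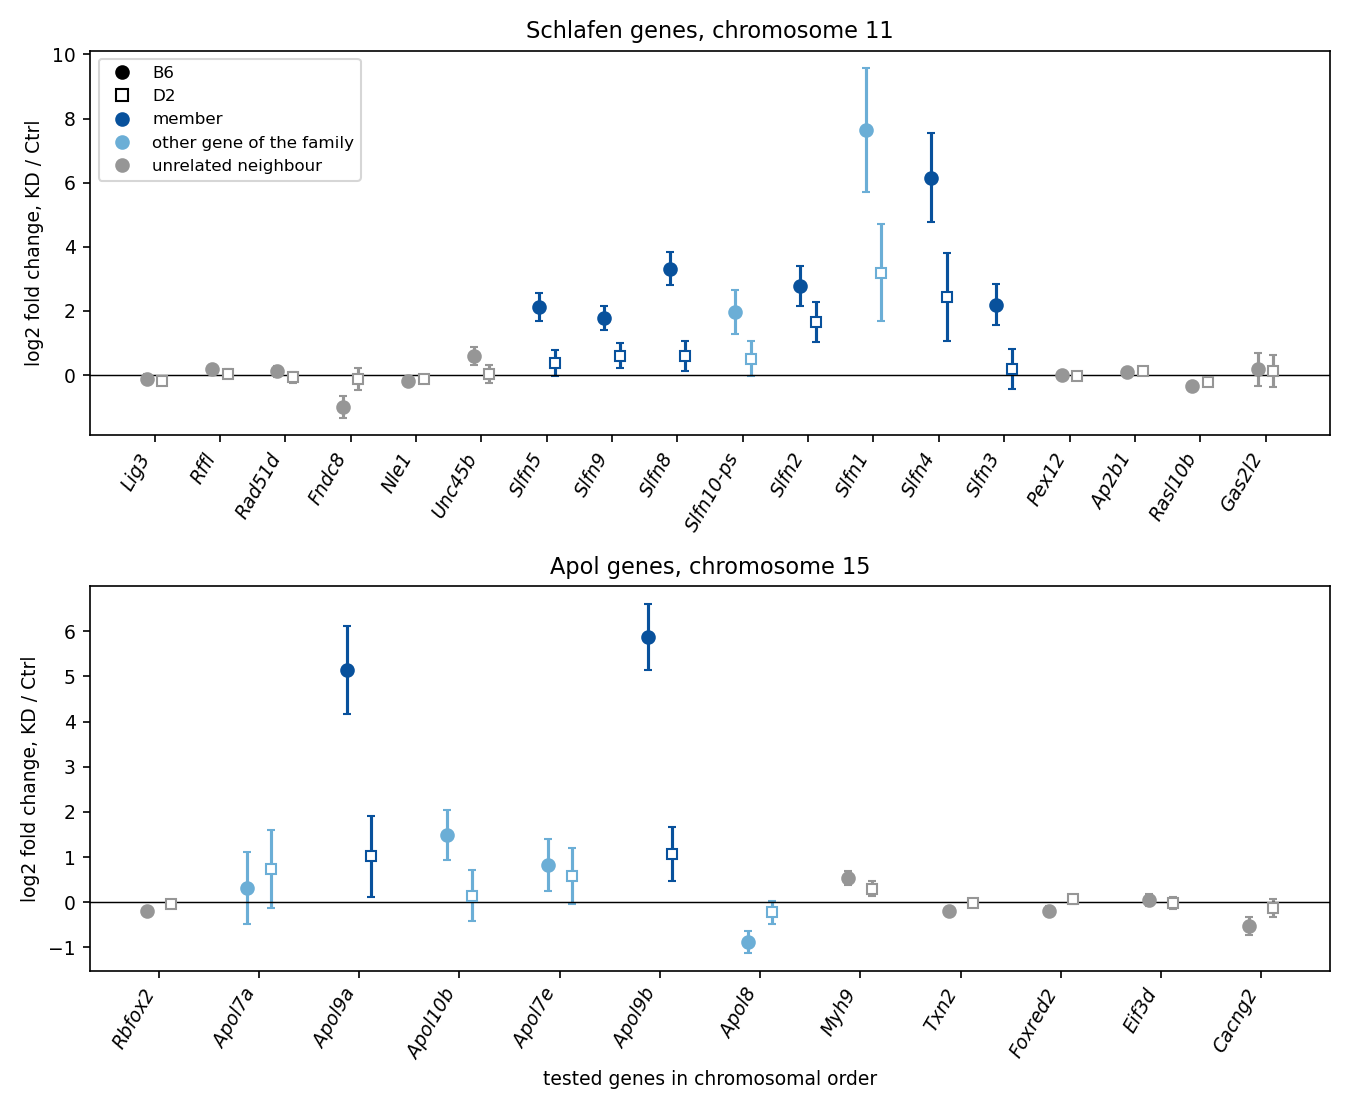
Fitted log2 fold change of KD over Ctrl with its standard error for tested genes in chromosomal order, in B6 (circles) and D2 (open squares). Members are dark blue, other Schlafen and Apol genes light blue and unrelated neighbours grey. In B6 the members lie between 1.78 and 6.15, and the unrelated neighbours between -0.98 and 0.59.

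The interferon pathway was read from a list of 40 genes, of which 30 were tested. In B6, 16 were called higher in KD and none lower by edgeR, beside 1.76% of all genes called higher. The list was chosen with earlier results of these data known, so that count is a description and carries no test. Among target genes 10 of 12 were called, including Ifi44 at a log2 difference of 4.88 ± 0.96, and Ifit2 had the lowest value of the 12, 2.21 ± 0.55. Among transcription factors 5 of 7 were called, including Irf7, the amplifier of the response, at 4.69 ± 0.71. Of 4 inhibitors Usp18, which removes Isg15 from proteins, was called at 4.32 ± 0.79.

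Of the receptors and Jak kinases edgeR called 0 of 7 in B6, with 2 at an unadjusted p under 0.05 and 2 called by DESeq2, and Ifngr1 had the highest value, 0.55 ± 0.16. None of 10 interferon genes passed the filter, and their summed level did not exceed 0.105 CPM in any library. In D2 no pathway gene was called by edgeR or DESeq2, with 10 of 30 at an unadjusted p under 0.05. Of all 15853 genes tested, 452 were under that p in D2 and 3262 in B6. The targets summed to 318.7 to 1068 CPM in B6 KD, beside 45.7 to 62.6 CPM in B6 Ctrl, and to 74.96 to 419 CPM in D2 KD, beside 54.1 to 177 CPM in D2 Ctrl. The highest D2 Ctrl value was that of D2 Ctrl 3, also the highest D2 Ctrl library for Slfn2, Slfn8, Slfn9, Apol9a and Apol9b. For Slfn2 it was nearly level with D2 Ctrl 1. D2 Ctrl 3 was the middle D2 Ctrl library for Slfn5 and the lowest for Slfn3 and Slfn4. The count of 16 fell to 0 without B6 Ctrl 1, B6 Ctrl 3, B6 KD 1, B6 KD 2 or D2 Ctrl 1, and it was 7, 5 and 8 without B6 Ctrl 2, D2 Ctrl 2 and D2 KD 1. Between the strains under scrambled virus, edgeR called 1 of the 30 pathway genes higher in D2 and 1 lower. Of all genes, 5.23% were called higher and 8.75% lower. Ifnar1 was higher in D2, at 0.55 ± 0.10 with an adjusted p of 0.0043 in edgeR. Irf3 was lower, at -0.46 ± 0.098 with an adjusted p of 0.0078 in edgeR.

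Markers of immune cells, also chosen with earlier results of these data known, stood beside these values as follows. The 10 microglial markers summed to 458 to 530 CPM in B6 Ctrl and to 670 to 1108 CPM in B6 KD. None of the 10 was called by edgeR, while 9 had an unadjusted p under 0.05 and DESeq2 called 8. Of all 15853 genes tested in B6, edgeR called 418, 3262 had an unadjusted p under 0.05 and DESeq2 called 1688. All 10 estimates were above 0, and their median log2 difference was 0.97. In D2 the sums were 413 to 694 CPM in Ctrl and 424 to 770 CPM in KD, which overlapped.

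Markers of blood monocytes and neutrophils were low. They summed to 0.492 to 4.09 CPM in B6 Ctrl and 3.05 to 19.1 CPM in B6 KD, and to 1.13 to 1.93 CPM in D2 Ctrl and 2.25 to 6.23 CPM in D2 KD. Of 6 tested only Plac8 was called higher in B6 KD, at 4.30 ± 0.95, and Camp had no count in B6 Ctrl and D2 KD. T cell markers summed to 2.78 to 4.99 CPM in B6 Ctrl and 4.06 to 13.2 CPM in B6 KD, with 0 of 4 tested called by edgeR or DESeq2 and 1 at an unadjusted p under 0.05. Natural killer cell markers summed to 0.202 to 0.485 CPM in B6 Ctrl and 1.06 to 2.89 CPM in B6 KD, and none passed the filter. B cell markers summed to 0.485 to 1.03 CPM in B6 Ctrl and 1.49 to 2.67 CPM in B6 KD, with 0 of 2 tested called by edgeR or DESeq2 and 2 at an unadjusted p under 0.05. The natural killer and B cell lists were thus apart between the B6 groups, in the direction of the members, and overlapped between the D2 groups. The same held for the microglial list. The monocyte and neutrophil list was apart between the D2 groups, higher in KD, and overlapped between the B6 groups. T cell markers overlapped between the groups of each strain. The part of these cells in the values of the members was not tested, and in whole tissue more cells of a type and more RNA per cell cannot be told apart. Choroid plexus markers ran from 59.7 to 5130 CPM across libraries. They summed to 79.4 to 2737 CPM in B6 Ctrl and 147 to 5085 CPM in B6 KD, which overlapped, and their part in the values of the members was not tested.

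Likeness across libraries was described by the correlation of log2(CPM + 1) over 12 libraries after each group mean was removed. Over the 28 pairs of members, r ran from 0.19 to 0.97 with a median of 0.79. The gene outside the set most like each member was Themis2 for Slfn2 (0.98), Mier1 for Slfn3 (0.97), Eml1 for Slfn4 (0.96), Ctbs for Slfn5 (0.98), Ms4a6b for Slfn8 (0.99), Phf11a for Slfn9 (0.97), Ms4a4c for Apol9a (0.94) and Daxx for Apol9b (0.95). All points share the same libraries, and between 0 and 3 of the 3 most alike genes per member stayed the same with another pseudocount.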

How the data were processed

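Whole-hippocampus RNA of 12 mice was sequenced as 75-base paired reads. The authors aligned B6 reads to the B6 genome and D2 reads to the D2 genome, and obtained expected counts per gene with RSEM 1.2.12 and Bowtie2 2.2.0, versions taken from the submitters' processing notes, which name GRCm38 (mm10). Reads of repeated runs were joined for most samples, and which samples lack them is not given in the sources used here. The deposited expected counts are not normalized, and a second deposited table of normalized counts was not used here. Of 22236 identifiers, 21933 matched GENCODE M21.

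Expected counts were rounded, filtered with filterByExpr over the 4 groups and fitted in R 4.3.3 with edgeR 4.0.16 (quasi-likelihood F-test, TMM, robust, default method of that version), with 1 mean per group and a shared spread. Benjamini-Hochberg adjusted p-values under 0.05 over all 15853 genes were called. Approximate standard errors were obtained by dividing the log2 fold change by the root of the F statistic. Alternatives were DESeq2 1.42.0, its size factors in edgeR, limma-voom (limma 3.58.1), the newer quasi-likelihood method, no filter, summed paralog pairs and leaving out each library. Limma-voom with library weights was added after the data were seen. Counts were simulated for KD against Ctrl in B6, with changed genes drawn only from those above a minimum mean CPM. Of the members, only Slfn5 and Slfn8 lay above that level, so the shares recovered do not describe genes with low counts. Recovered were 86% of genes raised by 1 on the log2 scale and 78% of those changed by -1. For changes of 2 and -2 the shares were 100% and 94%, with 7 false calls among 15853 genes.

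Replicates were numbered in accession order. Labels name separate mice, and p-values measure the spread between them. Intervals of count ratios are exact at 95%. The genes named are the 8 members, Hp1bp3, the genes most like each member, and those at the ends of each list or called in it; Slfn1, Slfn10-ps and Rasl10b were singled out after their values were seen. The comparison of the strains under scrambled virus was planned as a test for the members and is given as a description, since their choice used the same control libraries. The members and lists were chosen with earlier results of these data known.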

Additional observations from a re-analysis of the deposited data

How the results depend on the processing

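The direction of every member in B6 was kept in all settings tried. Genes called for KD against Ctrl in B6 were 418 in edgeR, 1688 in DESeq2 and 2304 in limma-voom with library weights, and 0 to 790 without single libraries. In D2 they were 0, 1 in DESeq2 and 0 to 1 without single libraries. Averaged over strains they were 0, with 3046 at an unadjusted p under 0.05, 1241 in DESeq2, 15 with the newer quasi-likelihood method, 1598 in limma-voom with weights and 0 to 799 without single libraries. The strain by treatment interaction gave 0 and, in DESeq2, 11. Members called between strains under scrambled virus were 3, 1 in limma-voom, 1 with paralog pairs summed and 1 to 3 without single libraries. Apol9b was also not called with the newer quasi-likelihood method and in limma-voom with weights. Other family genes called in B6 were 0, 2 in DESeq2, 4 in limma-voom with weights and 0 to 1 without single libraries; between strains they were 1, 2 in DESeq2 and 0 to 2. Neighbouring genes called in B6 were 0, 2 in DESeq2, 4 with weights and 0 to 2; between strains they were 1, 2 in DESeq2, 2 with weights and 1 to 2. Interferon pathway genes called in B6 ran from 0 to 20 without single libraries. Reversed signs were Slfn3 in D2 KD without D2 Ctrl 3 (-0.19, range to 0.79) and Slfn9 between strains without B6 Ctrl 2 (-0.044) or D2 Ctrl 3 (-0.056, range to 0.29). The cause of these changes was not tested. Each library came from a separate mouse that received 1 virus, and the labels pair no mice, so no paired analysis was made. With 1.48 to 4 expected counts per library, Slfn4, Apol9a and Apol9b in B6 Ctrl are limited by counting error.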
